A study of Mus musculus with 22 samples.

Results

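Serine synthesis and one-carbon metabolism were followed through 8 enzyme genes chosen by symbol: Phgdh, Psat1, Psph, Shmt1, Shmt2, Mthfd1, Mthfd1l and Mthfd2. They are 8 of the 24982 genes in each count table, and all 8 passed the filter on low counts, which 12387 genes passed. The rule used gene symbols alone, with no threshold on a measured value. The members were still chosen with earlier results of these data known. Their counts beside shares of all genes are therefore descriptions and no independent test. The study sorted eosinophils, the granulocytes of type 2 immunity, from the bone marrow of wild type C57BL6 mice at 4 successive maturation stages, I to IV. Every mouse had received 400 ng of recombinant interleukin-33 (IL-33) into the peritoneum daily for 7 days, so the controls carry that treatment too. With the last IL-33 injection began 3 daily injections of 400 µg of either an antibody to interleukin-5 (anti-IL5) or a control isotype antibody (isotype). The question was how blocking IL-5, the main growth factor of eosinophils, acts on the maturation stages during IL-33-driven eosinophilia. The 22 libraries form 8 groups, with 3 libraries each at stages I, III and IV and 2 each at stage II. The labels give neither age nor sex, nor whether a library came from 1 mouse or a pool, so p-values measure the spread between libraries. No group without IL-33 was analysed here.

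Phgdh, Psat1 and Psph catalyse the steps, in that order, that turn the glycolytic intermediate 3-phosphoglycerate into serine. Shmt1 in the cytosol and Shmt2 in mitochondria split serine into glycine and a one-carbon unit carried by folate. In mitochondria Mthfd2 oxidises that unit and Mthfd1l releases it as formate. Mthfd1 takes up formate in the cytosol, where the units feed purine and thymidylate synthesis. Proliferating cells, haematopoietic precursors among them, are known to depend on this supply, and Atf4 and Myc are known regulators of several of its genes.

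The libraries held 7161264 to 14781250 counts on genes and 12359 to 13829 genes with a count. Levels are given in CPM, a gene's counts in proportion to the scaled gene counts of its library, and 3 counts correspond to 0.222 to 0.411 CPM. The 10 eosinophil markers (such as Epx, Prg2, Siglecf, Ccr3) were present in every group, with a summed level of 9170 to 68200 CPM. Markers of T and NK cells summed to 2.83 CPM at most. Over the libraries, megakaryocyte markers summed to 95.7 to 1260 CPM and monocyte and macrophage markers to 653 to 2910. The largest sums of markers of other cells were those of neutrophils, at 2750 to 10600 CPM over the libraries of stages I to III. Stage IV libraries had lower neutrophil sums, given below. Basophil and mast cell markers summed to 3210 CPM at most, at isotype stage I. Of 7 erythroid markers 4 were at 0 in all groups, and the sum was 0.801 to 36.5 CPM. In bulk RNA, fewer cells of a type and less RNA per cell cannot be told apart.

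Under isotype, the 8 enzymes were high in the early stages and low in the late ones, and every member was lower at stage IV than at stage I under both antibodies. Per kilobase of the longest coding transcript, Phgdh was at 98.8 ± 30.4 CPM/kb (SD, n = 3) at isotype stage I. On this scale Shmt2 was at 83 ± 20.1 and Psat1 at 64.2 ± 19.1 (SD, n = 3), so the ranges given by these spreads met those of Phgdh. The other members were at 15.2 (Mthfd1l) to 27.3 (Mthfd1) CPM/kb in that group. At isotype stage IV the order was another one: Psph led with 10.4 ± 0.646 and Shmt2 followed with 9.09 ± 1.6 CPM/kb, while Phgdh was at 0.2 ± 0.142 and Shmt1 at 0.0307 ± 0.033 CPM/kb (SD, n = 3).

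The start sites of the members are shown as a description only, and shared control of these genes was not tested. The genes lie on chromosomes 3 (Phgdh, 98313170 to 98339990, minus strand), 19 (Psat1, 15904678 to 15947337, minus), 5 (Psph, 129765558 to 129787449, minus), 11 (Shmt1, 60788104 to 60811718, minus), 10 (Shmt2, 127517123 to 127522444, minus), 12 (Mthfd1, 76255298 to 76319803, plus), 10 (Mthfd1l, 3973118 to 4167081, plus) and 6 (Mthfd2, 83305691 to 83325908, minus), in build mm10 with GENCODE M21. RefSeq start sites (GRCm38.p6) gave 9 windows for the 8 members, each from 250 bases before to 50 after a start, with 2 windows for Psat1. The windows were searched on both strands for 5 motifs. The C/EBP-ATF composite letters TGATGNAA, found in 3.97% of 32851 mouse promoter windows, were in none of the 9. Neither the E-box CACGTG (7.15% of windows) nor the cAMP response element TGACGTCA (1.79%) was found in them. The STAT letters TTCNNNGAA (8.3% of windows) occurred at Shmt2, 55 to 47 bases before the start, and the E2F letters GGCGGGAA (2.19% of windows) at Mthfd1, 54 to 47 bases before it; these matches do not overlap another searched motif. A match describes letters only, and a missing match says only that these letters are not in the window. The 250 bases before the start follow for Phgdh, the member with the largest fitted fall under anti-IL5, which holds no match, and for the members with a match, in capitals.
Phgdh, chr3:98339970-98340219, minus strand: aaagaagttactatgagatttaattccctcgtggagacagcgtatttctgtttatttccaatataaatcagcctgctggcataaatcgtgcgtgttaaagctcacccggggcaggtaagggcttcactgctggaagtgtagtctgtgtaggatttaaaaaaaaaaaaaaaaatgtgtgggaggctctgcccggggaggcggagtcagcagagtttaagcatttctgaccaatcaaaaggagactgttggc
Shmt2, chr10:127522445-127522694, minus strand: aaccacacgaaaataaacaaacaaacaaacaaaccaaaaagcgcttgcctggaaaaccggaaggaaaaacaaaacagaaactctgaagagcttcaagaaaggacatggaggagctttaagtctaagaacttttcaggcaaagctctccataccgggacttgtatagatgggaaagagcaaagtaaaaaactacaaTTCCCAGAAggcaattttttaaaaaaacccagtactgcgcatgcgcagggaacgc
Mthfd1, chr12:76254982-76255231, plus strand: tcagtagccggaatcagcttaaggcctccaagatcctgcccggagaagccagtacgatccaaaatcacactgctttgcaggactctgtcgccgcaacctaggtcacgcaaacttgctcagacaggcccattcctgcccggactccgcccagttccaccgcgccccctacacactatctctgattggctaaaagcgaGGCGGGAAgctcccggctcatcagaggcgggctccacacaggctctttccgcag

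Phgdh, which commits 3-phosphoglycerate to serine, spanned the widest range of levels together with Shmt1. Under isotype it was at 124, 237 and 200 CPM at stage I, 42.6 and 77.5 at stage II, 1.78, 10.8 and 11.6 at stage III, and 0.17, 0.682 and 0.281 at stage IV. Under anti-IL5 it was at 45.8, 55.5 and 89.5 CPM at stage I, 3.31 and 9.95 at stage II, 0.49, 0.769 and 0.98 at stage III, and 0.835, 2.94 and 1.26 at stage IV. The anti-IL5 libraries lay below all isotype libraries at stages I, II and III and above them all at stage IV, and the isotype stage III libraries include 1 low library, replicate 1. The stage IV values rest on 14 counts in the 3 isotype libraries together and 54 in the 3 anti-IL5 libraries, and 2 of those isotype libraries hold no more than 3 counts.

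Psat1, the aminotransferase of the next step, was at 127, 223 and 153 CPM at stage I, 82.4 and 126 at stage II, 24.3, 24.9 and 42.1 at stage III, and 3.49, 5.08 and 1.69 at stage IV under isotype. The anti-IL5 libraries had it at 84.3, 92.4 and 79 CPM at stage I, 52.2 and 70.7 at stage II, 12.5, 9.23 and 3.83 at stage III, and 0.954, 5.43 and 1.71 at stage IV. The antibody groups did not overlap at stages I to III and overlapped at stage IV. Psph, the phosphatase that releases serine, varied least. It was at 39.7, 46.4 and 46.8 CPM at stage I, 43.8 and 42.2 at stage II, 28.8, 26.9 and 23.4 at stage III, and 19.2, 17 and 17.7 at stage IV under isotype. The anti-IL5 libraries gave 42.8, 35.8 and 43 CPM at stage I, 42.2 and 30.6 at stage II, 21.5, 20.4 and 21.5 at stage III, and 16.1, 19.4 and 18.3 at stage IV. Its antibody groups overlapped at stages I and IV and, by a narrow gap, not at stage III; at stage II the higher anti-IL5 library equalled the lower isotype library at 42.2 CPM after rounding.

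**Figure D1:**
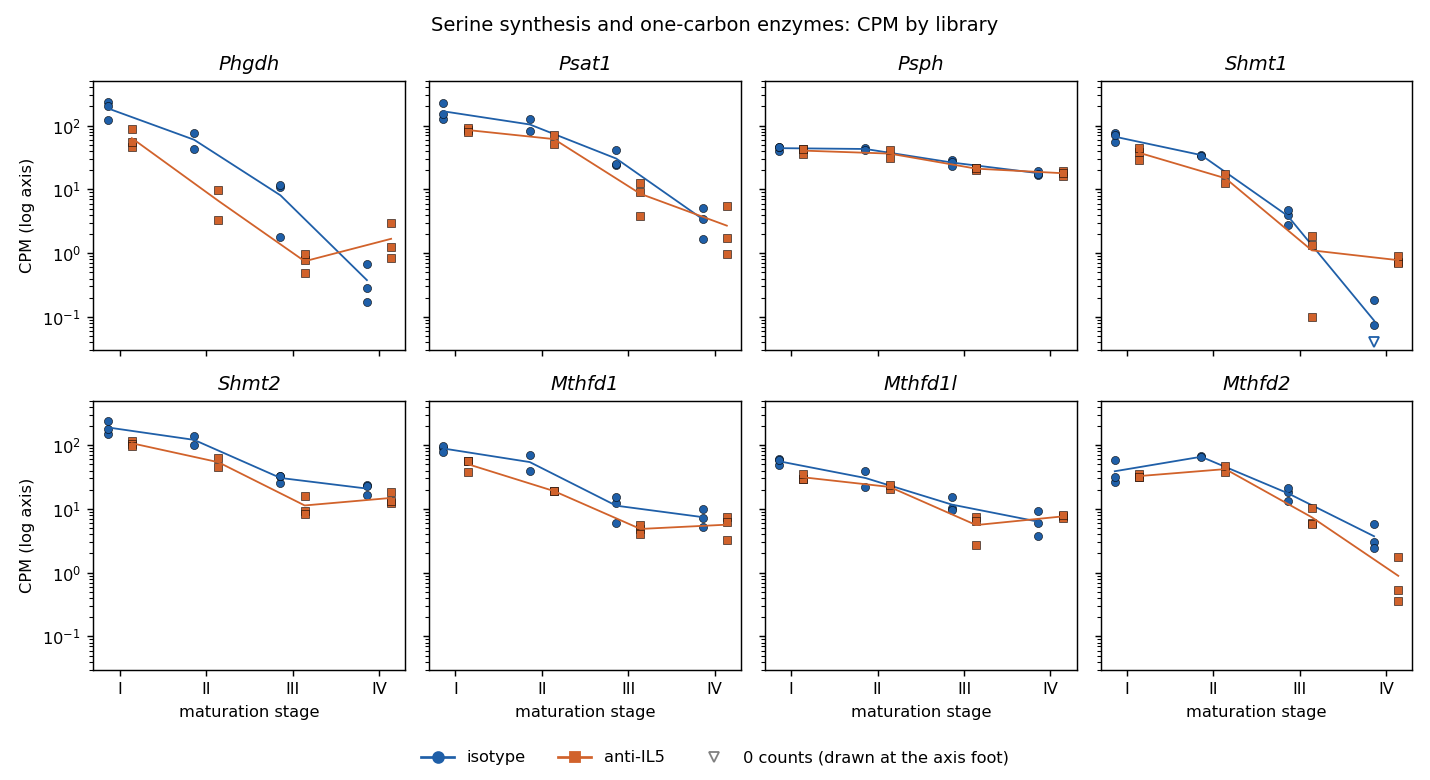
CPM (log axis) of the 8 enzymes in each of the 22 libraries by maturation stage, with isotype as circles and anti-IL5 as squares; lines join group means and the open triangle marks a library with 0 counts. Phgdh and Shmt1 drop by more than any other member between stages I and IV, Psph stays between 16.1 and 46.8 CPM, and Mthfd2 is highest at stage II.

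Shmt1, the cytosolic serine hydroxymethyltransferase, was at 54.6, 75.7 and 70.8 CPM at stage I, 35.2 and 33.8 at stage II, 3.95, 4.81 and 2.8 at stage III, and 0, 0.0758 and 0.187 at stage IV under isotype. With anti-IL5 the values were 39, 29.4 and 44.3 CPM at stage I, 17.4 and 12.5 at stage II, 0.0981, 1.35 and 1.87 at stage III, and 0.716, 0.712 and 0.899 at stage IV. As for Phgdh, the anti-IL5 libraries were below every isotype library at stages I to III and above every one at stage IV. Shmt2, its mitochondrial counterpart, kept a clear signal to the last stage. It was at 149, 240 and 180 CPM at stage I, 102 and 140 at stage II, 25.5, 32.9 and 33.3 at stage III, and 16.6, 23.3 and 22.6 at stage IV under isotype. Anti-IL5 libraries stood at 117, 106 and 98.1 CPM at stage I, 62 and 46.1 at stage II, 16.1, 9.42 and 8.46 at stage III, and 12.4, 13.5 and 18.7 at stage IV. Here too the groups were apart at stages I to III and overlapped at stage IV.

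Mthfd1, the cytosolic trifunctional enzyme, was at 90.7, 96.2 and 78.9 CPM at stage I, 39.3 and 69.2 at stage II, 6.11, 12.4 and 15.2 at stage III, and 5.19, 7.27 and 9.83 at stage IV under isotype. In the anti-IL5 groups it was at 37.9, 56.7 and 56.9 CPM at stage I, 18.8 and 19.3 at stage II, 4.9, 4.04 and 5.61 at stage III, and 3.22, 7.56 and 6.2 at stage IV. Its groups overlapped at stage IV alone. Mthfd1l, the mitochondrial formate synthase, was at 49.5, 60.6 and 57.5 CPM at stage I, 22.3 and 38.7 at stage II, 10.4, 9.45 and 15.2 at stage III, and 3.74, 5.91 and 9.27 at stage IV under isotype. The anti-IL5 values were 29, 29.2 and 35.7 CPM at stage I, 20.2 and 24 at stage II, 7.45, 6.54 and 2.76 at stage III, and 7.75, 7.12 and 8 at stage IV. Its groups overlapped at stages II and IV.

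Mthfd2, the mitochondrial dehydrogenase and cyclohydrolase, had the one profile with its highest mean at stage II. Under isotype it was at 26.7, 58 and 32.1 CPM at stage I, 66.9 and 64.6 at stage II, 18.2, 21.4 and 13.4 at stage III, and 5.7, 3.03 and 2.44 at stage IV. After anti-IL5 it was at 32, 34.9 and 31.2 CPM at stage I, 37.9 and 46.3 at stage II, 6.08, 10.2 and 5.88 at stage III, and 0.358, 1.78 and 0.539 at stage IV. It was the one member whose groups overlapped at stage I and were apart, with anti-IL5 lower, at stages II, III and IV. In the library anti-IL5 stage IV replicate 2, Phgdh, Psat1, Psph, Mthfd1 and Mthfd2 all had their highest value of that group, while Shmt1, Shmt2 and Mthfd1l did not.

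The 8 groups can be put in order by their mean CPM, and neighbours whose libraries overlap are not separated by their spread. For Phgdh the order ran from isotype stage I (187) over anti-IL5 stage I (63.6) and isotype stage II (60.1), which overlapped, to isotype stage III (8.09) and anti-IL5 stage II (6.63), which also overlapped. The 3 lowest Phgdh groups, anti-IL5 stage IV (1.68), anti-IL5 stage III (0.746) and isotype stage IV (0.378), overlapped from neighbour to neighbour. For Psat1, Shmt2 and Mthfd1 isotype stage I led, isotype stage II and anti-IL5 stage I overlapped behind it, and anti-IL5 stage II came before isotype stage III without overlap. For Shmt1 and Mthfd1l anti-IL5 stage I ranked just above isotype stage II with overlap, and the lowest mean was isotype stage IV for Shmt1 (0.0877) and anti-IL5 stage III for Mthfd1l (5.58), Mthfd1 (4.85) and Shmt2 (11.3). The lowest group was anti-IL5 stage IV for Psat1 (2.7), Psph (17.9) and Mthfd2 (0.892), where Mthfd2 alone did not overlap the group above. For Psph the 4 groups of stages I and II overlapped from neighbour to neighbour, between 30.6 and 46.8 CPM.

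Maturation under isotype was tested step by step with edgeR's quasi-likelihood test. Calls were made at 0.05 on p-values adjusted by Benjamini and Hochberg's method across all 12387 genes. From stage I to II none of the 8 members was called, against 3.25% of all genes called lower. Phgdh had a log2 fold change of -1.64 ± 0.534 (SE, edgeR adjusted p = 0.0552), which was called without isotype stage I replicate 1 (adjusted p = 0.0456). With the replicate number as a block edgeR called Phgdh (log2 -1.49, adjusted p = 0.00619), beside 3.46% of all genes called lower. With that block within antibody Phgdh was called too (-1.48, adjusted p = 0.00927). DESeq2 called 1 member, Shmt1 (log2 -1.01, adjusted p = 0.0251), beside 4.4% of genes called lower in that fit. From stage II to III all 8 members fell, where 18.1% of all genes were called lower. Shmt1 fell by 3.15 and Phgdh fell by 2.87 on the log2 scale, and Psph fell least, by 0.71 (edgeR adjusted p = 0.00432). Leaving out isotype stage II replicate 2 took the call from Psat1 (adjusted p = 0.0551) and Mthfd1l (adjusted p = 0.0918). Over the whole course, stage IV against I, all 8 members fell, beside 33.9% of all genes, with Psph at -1.30 ± 0.167 and Phgdh at -8.86 ± 0.715 (log2, SE; edgeR adjusted p = 6.01e-07 and 1.21e-09). Shmt1 went from 2215 counts to 3, a level 780-fold lower with a 95% counting interval of 267 to 3780.

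From stage III to IV under isotype 6 of 8 members fell, beside 18.8% of all genes. The log2 fold change was -4.35 for Phgdh, -3.13 for Psat1 and -2.24 for Mthfd2, and Shmt1 went from 112 counts to 3, 46.6-fold lower with a 95% counting interval of 15.5 to 229. Shmt2 had a log2 fold change of -0.56 ± 0.236 (SE, edgeR adjusted p = 0.0753), and with the replicate number within antibody as a block it was called (log2 -0.559, adjusted p = 0.0304). Mthfd1 was not called (log2 -0.61, adjusted p = 0.156), except without isotype stage III replicate 1 (adjusted p = 0.037). The Mthfd1l call (log2 -0.89, adjusted p = 0.0393) was lost without any 1 of isotype stage III replicates 1 or 3 or stage IV replicates 1 or 2, and the Psph call (log2 -0.55, adjusted p = 0.0144) without stage III replicate 1 or stage IV replicate 2.

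Under anti-IL5 the steps had other numbers of called members, which does not test a difference between the antibodies. Tested directly below, that difference was called for no member from stage I to II or from II to III. From stage III to IV it was called for Phgdh and Shmt1. From stage I to II 4 members were called, all lower, beside 5.16% of all genes: Phgdh (log2 -3.24 ± 0.607, SE, edgeR adjusted p = 0.00164), Mthfd1 (-1.41, adjusted p = 0.0115), Shmt2 (-0.99, adjusted p = 0.0162) and Shmt1 (-1.33, adjusted p = 0.0331). These calls depend on the stage II pair: without anti-IL5 stage II replicate 1 none of the 4 was called, and without replicate 2 Shmt1, Shmt2 and Mthfd1 were not. Shmt1 also lost its call without anti-IL5 stage I replicate 1 or 3. The same held in edgeR with the replicate number as a block (adjusted p = 0.0508) or as a block within antibody (adjusted p = 0.0719). From stage II to III all 8 members fell again, beside 19.7% of all genes, with Shmt1 at -3.72 ± 0.457 and Phgdh at -3.14 ± 0.714 (log2, SE). Phgdh lost this call without anti-IL5 stage II replicate 2 (adjusted p = 0.0918) and Psph without replicate 1 (adjusted p = 0.0735). From stage III to IV 2 members fell, Mthfd2 (log2 -2.98, adjusted p = 4.09e-05) and Psat1 (-1.60, adjusted p = 0.0224), beside 13.4% of all genes. The Psat1 call was lost without any 1 of anti-IL5 stage III replicates 1 or 2 or stage IV replicates 1 or 3. Without stage IV replicate 2 the fold changes were larger, -2.62 for Psat1 and -3.97 for Mthfd2. The other members had log2 fold changes of -0.52 (Shmt1) to 1.18 (Phgdh) at that step with none called, except Shmt2 without anti-IL5 stage III replicate 1, which was then higher (adjusted p = 0.048). Stage IV against I was lower for all 8 members under anti-IL5 as well, beside 32.8% of all genes, from -1.17 for Psph to -5.57 for Shmt1.

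Anti-IL5 was then compared with isotype within each stage. At stage I all 8 members had a fitted fold change below 0 (Mthfd2 above 0, at 0.153 on the log2 scale, without isotype replicate 2), and 1 was called, Shmt2 (log2 -0.83 ± 0.228, SE, edgeR adjusted p = 0.0424), beside 1.82% of all genes called lower. That call was lost on leaving out any 1 of the 6 libraries but isotype replicate 1, with adjusted p-values up to 0.256. Phgdh had the larger fold change, -1.56 ± 0.46, with an adjusted p of 0.0581. With the replicate number as a block edgeR also called Phgdh (log2 -1.53, adjusted p = 0.00262) and Mthfd1 (-0.863, adjusted p = 0.0385). In that fit 2.39% of all genes were called lower. Without the block Psat1, Shmt1, Mthfd1 and Mthfd1l lay between -0.81 and -0.98, and Mthfd2 and Psph at -0.25 and -0.13 (log2), none called by edgeR. The 2 antibody groups did not overlap for 6 of the 8 members, beside 14% of all genes with anti-IL5 lower.

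At stage II 3 members were lower under anti-IL5, beside 1.19% of all genes: Phgdh (log2 -3.16 ± 0.63, SE, edgeR adjusted p = 0.0148), Shmt2 (-1.16 ± 0.284, adjusted p = 0.0366) and Mthfd1 (-1.51 ± 0.38, adjusted p = 0.0422). With 2 libraries a group these calls hung on single libraries. Without isotype replicate 2 or anti-IL5 replicate 1 none of Phgdh, Shmt2 and Mthfd1 was called, and without anti-IL5 replicate 2 Shmt2 and Mthfd1 were not, with adjusted p-values up to 0.291. Phgdh had a log2 fold change of -4.18 without anti-IL5 replicate 2. In those fits the lone library is assumed to vary like the other groups. The groups did not overlap, with anti-IL5 lower, for 7 of 8 members, beside 18.4% of all genes.

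Stage III held the largest number of called members. Anti-IL5 was lower for 6 of 8, beside 5.05% of all genes called lower, and the libraries did not overlap for any of the 8, beside 15.1% of all genes. Phgdh fell most (log2 -3.43 ± 0.658, SE, edgeR adjusted p = 0.00361), and its call and that of Shmt2 (-1.44 ± 0.245, adjusted p = 0.0012) held on leaving out each of the 6 libraries in turn, with adjusted p-values up to 0.0201. Psat1 (-1.84 ± 0.437, adjusted p = 0.0149) and Shmt1 (-1.78 ± 0.449, adjusted p = 0.02) followed. The Psat1 call was lost without isotype or anti-IL5 replicate 3, and the Shmt1 call without isotype replicate 2. Mthfd1 (-1.22, adjusted p = 0.0313) lost its call without any 1 library but isotype replicate 1, and Mthfd2 (-1.26, adjusted p = 0.0394) without any 1 but anti-IL5 replicate 2, with adjusted p-values up to 0.17. Mthfd1l (-1.07 ± 0.331, adjusted p = 0.0564) and Psph (-0.32 ± 0.167, adjusted p = 0.273) were not called, though Mthfd1l was without isotype replicate 2 or anti-IL5 replicate 1.

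At stage IV 1 member was called, Mthfd2, lower under anti-IL5 (log2 -1.99 ± 0.466, SE, edgeR adjusted p = 0.0354), beside 0.864% of all genes called lower. It rests on 133 counts under isotype and 29 under anti-IL5, and the call was lost without isotype replicate 1 or 2 or anti-IL5 replicate 1 or 3 (adjusted p up to 0.19). Without anti-IL5 replicate 2 it was -2.99 (adjusted p = 0.00987). Libraries of the antibody groups did not overlap for Mthfd2, lower under anti-IL5 as 8.73% of all genes were, nor for Phgdh and Shmt1, higher as 7.08% were. Phgdh had a fitted log2 fold change of 2.11 ± 0.835 (adjusted p = 0.384). Shmt1 had 24 counts under anti-IL5 and 3 under isotype, a level 9.27-fold higher with a 95% counting interval of 2.82 to 48.1, and its edgeR adjusted p was 0.0899, while DESeq2 called it higher (log2 3.21, adjusted p = 0.0326). The interval covers counting error only. The remaining 5 members had log2 fold changes of -0.48 (Shmt2) to 0.28 (Mthfd1l), none called.

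**Figure D2:**
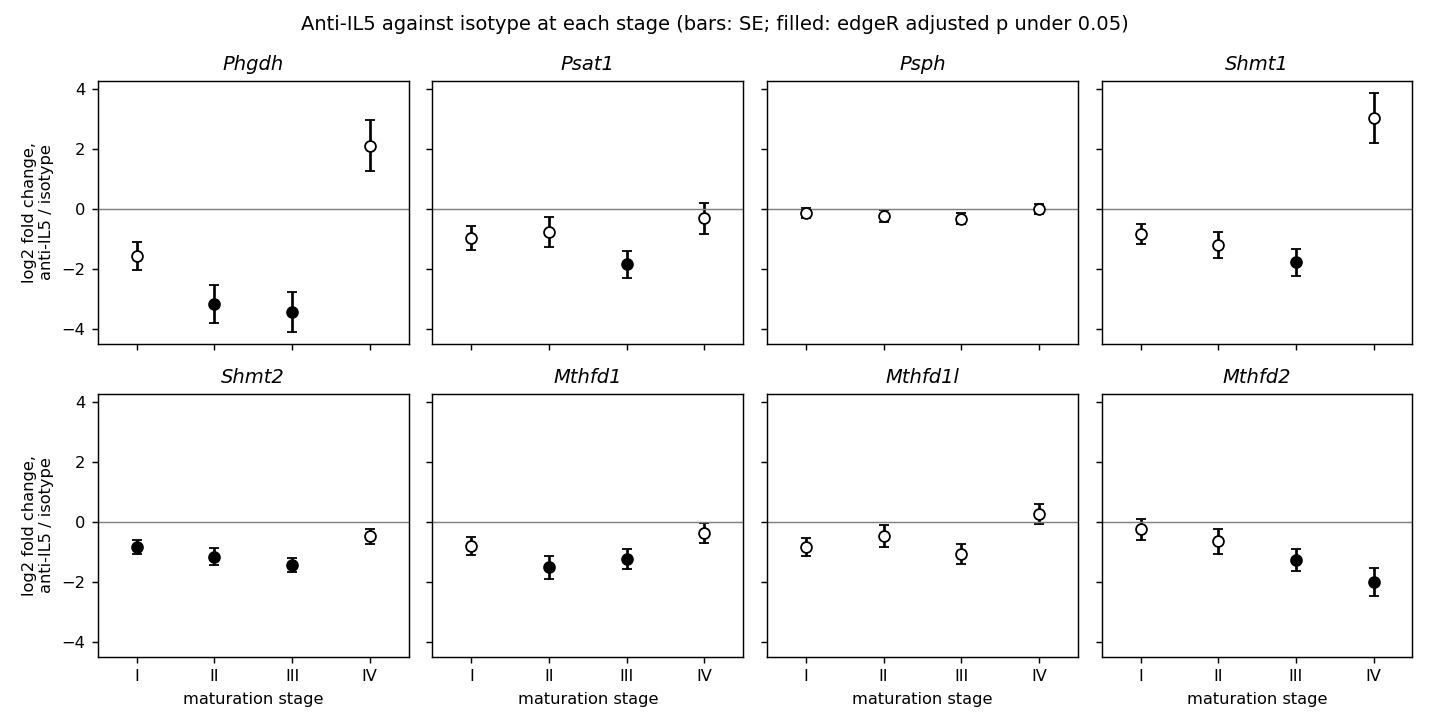
Fitted log2 fold change of anti-IL5 against isotype (vertical axis) at each maturation stage for the 8 enzymes; bars are standard errors and filled points have an edgeR adjusted p under 0.05. Phgdh goes from -3.43 at stage III to 2.11 at stage IV and Shmt1 from -1.78 to 3.03, where the Shmt1 value at stage IV rests on 3 isotype counts and depends on the prior count of the fit.

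Whether the antibody effect differed between stages was tested directly. Between stages III and IV it differed for Phgdh (log2 difference 5.54 ± 1.06, SE, edgeR adjusted p = 0.0159) and Shmt1 (4.81 ± 0.928, adjusted p = 0.0155), beside 0.541% of all genes with a higher effect at stage IV. The Phgdh call was lost without anti-IL5 stage IV replicate 2 (adjusted p = 0.0848) and without the filter on low counts (adjusted p = 0.0586), and the Shmt1 call without isotype stage IV replicate 2 (adjusted p = 0.0581). Psat1, Mthfd1l and Shmt2 had differences of 1.53, 1.35 and 0.96 with adjusted p-values of 0.24 to 0.434, and Mthfd2 had one of -0.73 (adjusted p = 0.746). From stage I to II and from II to III edgeR called no member and no gene, 0% in both comparisons. Genes with an unadjusted p under 0.05 numbered 194 (lower) and 119 (higher) for the first and 496 and 217 for the second. Of the 12387 genes tested, a share of 0.05 would pass that threshold without any difference. These numbers are therefore not read as a hidden effect. Phgdh was the one member among these genes, with a difference of -1.60 from stage I to II (edgeR unadjusted p = 0.0459, adjusted p = 1). Its unadjusted p is no evidence of a difference by itself. DESeq2 called 3 and 15 genes there, no member among them.

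As a mean over the 4 stages, 6 of 8 members were lower under anti-IL5, beside 10.3% of all genes. The log2 values were -1.51 ± 0.369 for Phgdh, -1.04 ± 0.2 for Mthfd2, -0.98 ± 0.125 for Shmt2, -0.98 ± 0.168 for Mthfd1, -0.97 ± 0.232 for Psat1 and -0.52 ± 0.169 for Mthfd1l (SE), with edgeR adjusted p-values from 1.65e-05 (Shmt2) to 0.033 (Mthfd1l). Psph (-0.17, adjusted p = 0.182) and Shmt1 (-0.20, adjusted p = 0.812) were not called. The Phgdh call was lost without isotype stage IV replicate 2 (adjusted p = 0.0869), and that of Mthfd1l on leaving out any 1 of 9 libraries (adjusted p up to 0.114). The median fitted log2 fold change of the 8 members was -0.83 at stage I, -0.962 at stage II, -1.35 at stage III and -0.159 at stage IV. Over all 12387 genes tested it was 0.0201, -0.00344, -0.0103 and 0.

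The levels under anti-IL5 can also be set beside those of the following stage under isotype. At anti-IL5 stage I 7 of 8 members overlapped isotype stage II, and Mthfd2 was lower (31.2 to 34.9 against 64.6 to 66.9 CPM), beside 15.6% of all genes. Anti-IL5 stage II was above isotype stage III for 7 of 8 members, beside 22.1% of all genes, and Phgdh alone overlapped, at 3.31 and 9.95 against 1.78 to 11.6 CPM. Beside isotype stage IV, anti-IL5 stage III was higher for Psph and Mthfd2, lower for Shmt2 (8.46 to 16.1 against 16.6 to 23.3 CPM) and overlapped for the other 5, beside 21.2% of all genes higher and 22.4% lower. These placements are descriptions by range with no test.

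Ratios of counts within a library do not depend on its scaling and show that the members did not move in proportion. They are not corrected for gene length, so they compare groups and not enzymes. Summed over a group, Phgdh counts per Psph count were 4.11, 1.44, 0.328 and 0.0219 at isotype stages I to IV and 1.6, 0.194, 0.0357 and 0.0969 under anti-IL5. At stages I to III every anti-IL5 library had a lower ratio than every isotype library, and at stage IV every one had a higher ratio, 0.0519 to 0.151 against 0.00885 to 0.04. The sums at anti-IL5 stage II (0.0785 or 0.325 from replicate 1 or 2 alone) and at stage IV (0.0619 without anti-IL5 replicate 2, 0.012 without isotype replicate 2) turn on single libraries. Mthfd2 counts per Mthfd1 count went from 0.421 at isotype stage I to 1.18 and 1.55 at stages II and III and back to 0.508 at stage IV. Under anti-IL5 it was 0.638, 2.23, 1.51 and 0.16, with every stage IV library (0.087 to 0.235) below every isotype one (0.248 to 1.1). The stage IV sums were 0.328 without isotype replicate 1 and 0.0938 without anti-IL5 replicate 2. Shmt2 counts per Shmt1 count were 2.81, 3.56 and 7.9 at isotype stages I to III and 2.84, 3.62 and 9.92 under anti-IL5, so the antibody groups had near-equal ratios at stages I and II. At stage III the anti-IL5 libraries ran from 4.52 to 164 and the isotype libraries from 6.45 to 11.9, and the anti-IL5 sum turns on replicates 1 and 3: without replicate 1, which held 1 Shmt1 count, it was 5.51, below isotype, and without replicate 3 it was 17.5. At stage IV the sums gave 19.3 under anti-IL5, while the isotype libraries held 743 Shmt2 counts and 3 Shmt1 counts.

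**Figure D3:**
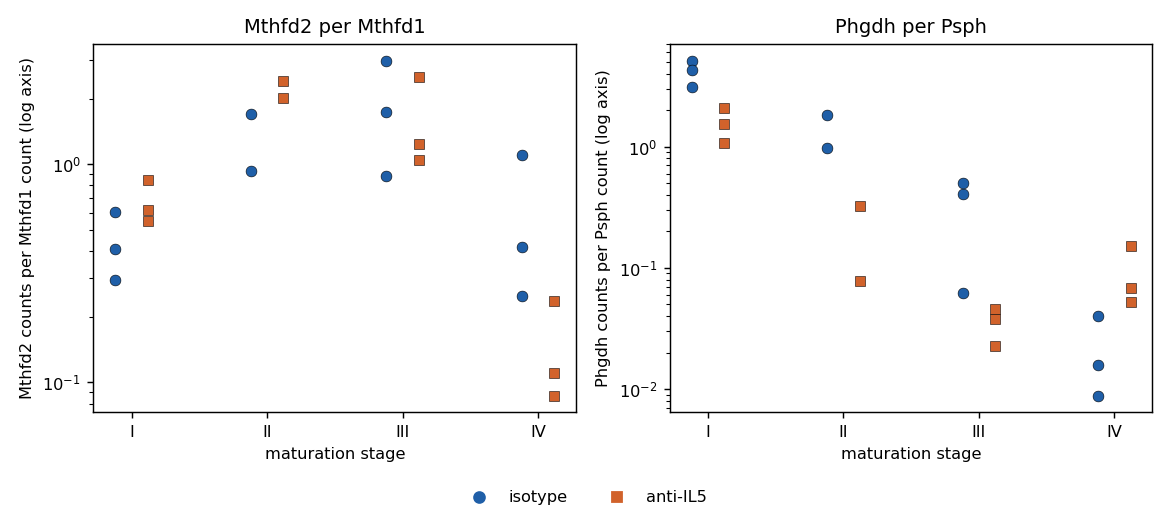
Ratio of counts within each library (log axis), Mthfd2 per Mthfd1 at left and Phgdh per Psph at right, by maturation stage with isotype as circles and anti-IL5 as squares. Phgdh per Psph lies lower under anti-IL5 at stages I to III and higher at stage IV, and Mthfd2 per Mthfd1 is highest at the middle stages.

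Over the 22 libraries the members' log2 CPM went up and down together: the 28 pairs had Pearson correlations of 0.721 to 0.971 with a median of 0.898. Those libraries share the stages, which set most of the range, and after subtracting each group's mean the same pairs ran from -0.481 to 0.725 with a median of 0.165. For each member the 3 genes with the most similar profile over the 22 libraries were looked up. They were Mettl1 (0.983), Fkbp11 and Slc31a1 for Phgdh, Jpt2, Nup43 and Cnih1 (each 0.98) for Psat1, and Psmg1 (0.977), Uchl3 and Lsm6 for Psph. Shmt1 was most like Nrp (0.971), Cfap298 and Cdk4, and Shmt2 most like Pdia6 (0.986), Impdh2 and Krtcap2. Mthfd1 had Ruvbl1 and Pdia6 (each 0.975) and Hspe1, Mthfd1l had Impdh2 (0.967), Nop10 and Mrpl16, and Mthfd2 had Fam72a (0.964), Neto2 and Atad5. Each member had from 328 (Mthfd2) to 778 (Psat1) genes above a correlation of 0.9, so many profiles resemble theirs.

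The enzymes around the 8 were taken from lists of the pathway. Their counts are read against the share of all genes called lower under anti-IL5 at stages I to IV, 1.82, 1.19, 5.05 and 0.864%, and called higher, 2.61, 0.565, 1.32 and 0.186%. Stage III thus held the most lower calls among all genes too. Among 16 other folate enzymes and carriers, 0, 1, 4 and 0 were called lower at stages I to IV and none higher. The stage III genes included Tyms, the thymidylate synthase (log2 -1.22, edgeR adjusted p = 0.000545), Fpgs, which adds glutamates to folate (-2.05, adjusted p = 0.0101), and the folate carrier Slc19a1 (-1.79, adjusted p = 0.0262). Fpgs was also the stage II gene (-2.02, adjusted p = 0.0408). Neither of the 2 glycine cleavage genes tested was called at any single stage, and 1 was lower as a mean over stages. Of 13 genes for serine and glycine transport and other serine use, Slc38a1, an amino acid carrier, was lower at stages I (-0.51, adjusted p = 0.0476) and III (-0.49, adjusted p = 0.0483), and Sfxn1, the mitochondrial serine carrier, at stage III (-1.05, adjusted p = 0.000808). Of 11 methionine cycle genes 1 was called at a single stage, Ahcyl2, higher at stage III (0.74, adjusted p = 0.0295), although the median of the list was below 0 at every stage (-0.102 to -0.316). As a mean over stages 4 of the 11 were lower, among them Ahcy, which splits S-adenosylhomocysteine (-0.91, adjusted p = 0.0113), and Mtap, a methionine salvage enzyme (-0.74, adjusted p = 0.00494), and Ahcyl2 was higher, beside 10.3% of all genes lower and 8.6% higher. Of 5 glycolytic genes around 3-phosphoglycerate 1 was called, Pgam1, lower at stage IV (-0.62, adjusted p = 0.0305).

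The lists for purine synthesis, deoxynucleotide supply, and Myc and S phase had most of their lower calls at stage III. All genes did too (626 of 12387 there, against 225, 147 and 107 at stages I, II and IV). Of 13 genes of purine synthesis, 1, 1, 6 and 0 were lower at stages I to IV, with Paics (log2 -0.86), Prps1 (-1.05), Ppat (-1.67) and Gart (-0.96) at stage III and Adsl at stages I (-0.76) and II (-1.02). Of 10 genes of deoxynucleotide supply, 1, 0, 7 and 0 were lower, among them Cad at stage I (-1.79) and Dut (-1.22), Rrm2 (-1.30), Rrm1 (-1.05) and Nme1 (-1.23) at stage III. Of 18 genes for Myc and S phase, 0, 1, 13 and 0 were lower, with Mcm3 (-1.51), Mcm6 (-1.18) and Mcm7 (-0.98), parts of the replicative helicase, at stage III. Myc itself was lower at stages II (-2.28 ± 0.422, SE, edgeR adjusted p = 0.00972) and III (-2.56 ± 0.398, adjusted p = 0.000594), and at stage I its adjusted p was 0.358. The summed level of that list was 1190 to 1430 CPM at isotype stage III and 479 to 678 at anti-IL5 stage III, and its part in the members' lower levels there was not tested.

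Among 33 genes of the ATF4 and amino acid response 5, 5, 5 and 0 were lower at stages I to IV and none higher, beside 1.82, 1.19, 5.05 and 0.864% of all genes called lower, so equal counts stand against unequal shares. Aldh18a1, a proline synthesis enzyme, was lower at stages I (log2 -1.32), II (-1.27) and III (-0.95), and Slc7a5, a carrier of large neutral amino acids, at stages I (-1.82) and II (-2.59). The tRNA synthetases Gars (-0.68) and Tars (-0.69) were lower at stage I and Tars again at stage II (-0.94). Asns, the asparagine synthetase, was lower at stage II (-2.59 ± 0.537, SE, edgeR adjusted p = 0.0161), and Vldlr (-5.65), Eprs (-0.92) and Iars (-1.28) at stage III. Atf4 was called at no stage, with edgeR adjusted p-values of 0.58, 0.707, 0.932 and 0.969. Its level was 232 to 344 CPM at isotype and 203 to 324 at anti-IL5 stage I, and 135 to 265 and 151 to 264 CPM at stage III.

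**Figure D4:**
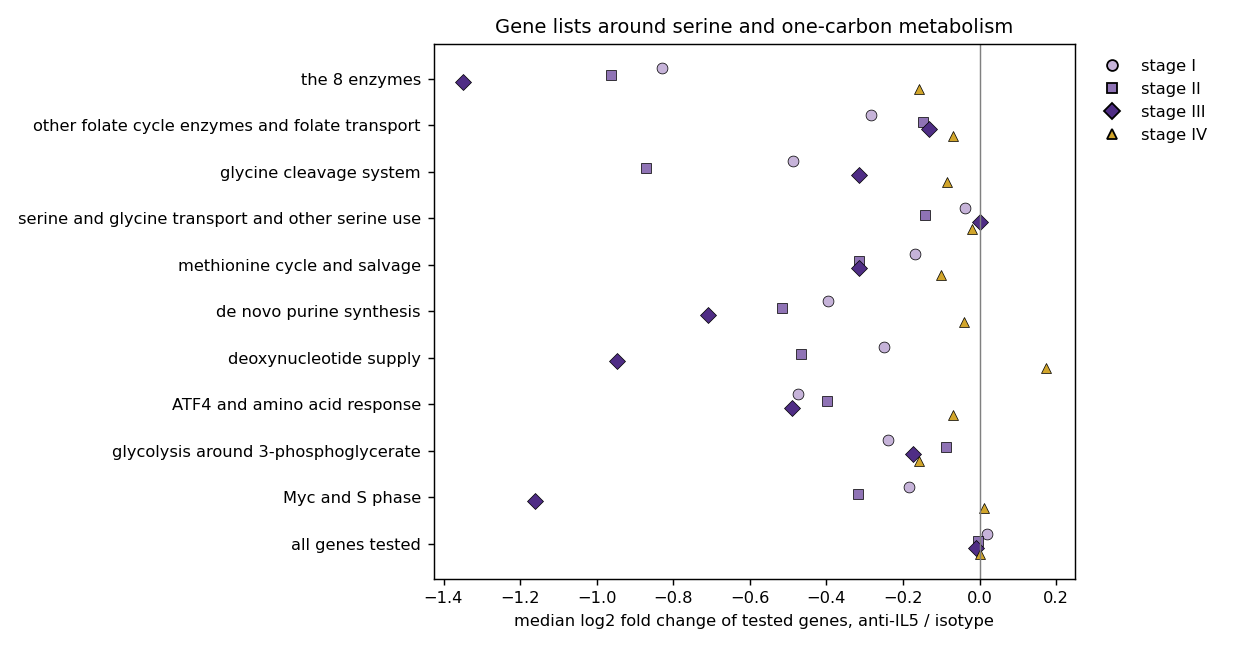
Median fitted log2 fold change of anti-IL5 against isotype (horizontal axis) over the tested genes of each list, 1 symbol per maturation stage. The 8 enzymes sit at -1.35 at stage III, the Myc and S phase list at -1.16 and the deoxynucleotide list at -0.946, while all genes tested stay within 0.0201 of 0.

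Marrow had been depleted of cells bearing Ly6G, CD90.2, NK1.1 or CD45R, and the labels give a sort purity of 95% or more. Even so, markers of other cells moved with some of these groups. At stage I the erythroid sum was 29 to 36.5 CPM under isotype and 12.3 to 21.6 under anti-IL5, and the sum of 7 stem and progenitor markers was 635 to 836 and 884 to 1070 CPM, both without overlap, with no marker of either list called. The 7 B cell markers summed to 9.44 to 68.3 CPM over the libraries. At stage I 1 B cell marker, the monocyte marker Csf1r (1.59) and 2 eosinophil markers were higher, beside 2.61% of all genes. Of 6 basophil and mast cell markers tested, 4 were lower under anti-IL5 at stage III (Cpa3 log2 -4.18), beside 5.05% of all genes, with a summed level of 1000 to 1460 CPM under isotype and 548 to 618 under anti-IL5, while the mast cell proteases Mcpt4 and Tpsb2 were at 0 in both groups. Of 11 neutrophil markers 2 were higher at stage IV (S100a9 1.75, Ngp 1.39), beside 0.186% of all genes, with a summed level of 713 to 1770 CPM under anti-IL5 and 494 at most, 429 on average, under isotype. Of 10 eosinophil markers 2 were lower at stage III (Epx -1.56, Prg3 -1.21) and 3 at stage IV, where 0.864% of all genes were, with 42600 to 49600 CPM at isotype stage III and 26600 to 31900 at anti-IL5 stage III. At stage II neutrophil sums were 4030 to 5680 CPM under isotype and 6090 to 6400 under anti-IL5. B cell sums there were 21.7 to 48.3 and 50.5 to 68.3. Lower there were basophil and mast cell sums (1270 to 1890 and 965 to 1230) and megakaryocyte sums (899 to 977 and 633 to 864). So were monocyte and macrophage sums (1400 to 1480 and 1210 to 1370) and erythroid sums (10.2 to 15.7 and 7 to 7.33). At stage IV basophil and mast cell sums were 123 to 144 and 154 to 175. The part of these shifts in the enzymes' values was not tested. Exons of Psph, Shmt1, Shmt2 and Mthfd1 overlap a gene on the opposite strand, by 452 (Cct6a), 184 (Smcr8), 32 (Ndufa4l2) and 37 (Gm47525) bases, and since the kit does not mark strand and the counting is not described, reads there cannot be assigned with certainty. The part of such reads in the level and small range of Psph, and in the Phgdh per Psph ratio, was not tested. Phgdh has a processed pseudogene, Phgdh-ps1, which could share reads with it.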

How the data were processed

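RNA of sorted bone marrow eosinophils was measured in 22 libraries. Per the labels' protocols, full-length cDNA came from SMART-Seq v4 (17 amplification cycles, no strand marking) and libraries from Nextera XT, with no molecular identifiers named, so intervals and floors cover counting error only. The aligner STAR (2.6.1a), DESeq2 and the mouse build mm10 are listed per the submitters' processing notes, with no role stated. Which program counted reads, on which annotation and with which strand option, is not given in the sources used here. The deposited files hold raw counts per gene symbol. Reads outside genes (12.7 to 22.1% of counts) and ambiguous reads (1.86 to 2.39%), the 2 extra lines of each file, were left out.

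Groups came from the titles. A single edgeR 4.0.16 quasi-likelihood model (R 4.3.3) of 8 groups was fitted with TMM factors (0.850 to 1.23) and filterByExpr, with 16 contrasts and Benjamini-Hochberg adjustment over all 12387 genes tested. The standard error of a log2 fold change was taken as its size divided by the square root of F. In data simulated for anti-IL5 against isotype at stage III (12073 genes, 50 per fold size), 94% of genes lowered to 0.25-fold and 60% of those lowered to 0.5-fold were recovered. The changed genes were drawn above a minimum level and started from their mean over all 8 groups. Recovery at stage III levels as low as those of Phgdh and Shmt1 was therefore not measured. Alternatives were RLE factors, no filter, DESeq2 1.42.0, replicate blocks and leaving out each library. No library was a copy of another (lowest chi-square per degree of freedom between replicates 13.2).

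The members, the gene lists and the cell markers were chosen with earlier results of these data known. All 8 members are named whatever their values, and from each pathway list at most 4 called genes with the smallest adjusted p in a comparison. A called gene of the folate list is not reported here. Myc and Atf4 are named always, and likeness is Pearson's r of log2 CPM (prior count 2). Promoter windows are RefSeq's, and lengths are from GENCODE M21. Same-numbered libraries of isotype stages III and IV deviated together from their group means in all 3 pairs (r of 0.124 to 0.208), a hint from the data that these numbers pair samples, so the blocked value stands beside that step. Where a block changed a member's call in another comparison, its value is given there as well.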

Additional observations from a re-analysis of the deposited data

Results flagged for a closer look

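The anti-IL5 effect on Phgdh differed between stages III and IV by 5.54 ± 1.06 on the log2 scale (SE, edgeR adjusted p = 0.0159): all anti-IL5 libraries were below all isotype libraries at stage III and above them at stage IV. For Shmt1 the difference was 4.81 ± 0.928 (adjusted p = 0.0155), with the same ranges. Both were picked out because the effect of the same contrast differed between 2 stages by a test of the difference itself. At isotype stage IV the values rest on 14 counts for Phgdh and 3 for Shmt1 over 3 libraries. Those of anti-IL5 stage III rest on 24 and 36 counts over 3 libraries, with 1 Shmt1 count in replicate 1. Neither gene was called at stage IV by itself in edgeR (adjusted p = 0.384 and 0.0899), while DESeq2 called Shmt1 higher there (log2 3.21, adjusted p = 0.0326). Without anti-IL5 stage IV replicate 2 the Phgdh difference had an adjusted p of 0.0848 and without the filter on low counts one of 0.0586, and without isotype stage IV replicate 2 that of Shmt1 had one of 0.0581. Over the 12 fits that left out 1 library the difference ran from 4.85 to 6.31 for Phgdh and from 4.29 to 5.7 for Shmt1.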

How the results depend on the processing

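With RLE factors all 106 values kept their direction and side of the threshold, although the median of all genes at stage IV against I under isotype went from -0.0447 to -0.147. Without the filter 104 of 106 did: Psat1 from stage III to IV under anti-IL5 (adjusted p = 0.0635) and the Phgdh difference between stages III and IV (adjusted p = 0.0586) were not called, so 1 member each was. DESeq2 called 2 members at stage I (Shmt1 added), 4 at stage II (Shmt1 added, log2 -1.18, adjusted p = 0.0461), 7 at stage III (Mthfd1l added, -1.07, adjusted p = 0.0212), 2 at stage IV (Shmt1 added as higher) and 1 from stage I to II under isotype. Of 16619 genes it called 2.86, 1.48, 5.72 and 1.15% lower at stages I to IV, and 65 genes higher at stage IV. From stage I to II under isotype it called 4.4% lower. DESeq2 also called more genes over all: 989 against 548 at stage I, 472 against 217 at stage II (47.9% higher against 32.3%), 1311 against 789 at stage III, 256 against 130 at stage IV and 257 against 79 for the difference between stages III and IV; from stage I to II under isotype 57.5% of calls were higher against 69.4%. The cause of these shifts was not tested.

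The replicate number as a block called 3 members at stage I, with Phgdh (log2 -1.53, adjusted p = 0.00262) and Mthfd1 (-0.863, adjusted p = 0.0385) added, and 1 from stage I to II under isotype (Phgdh, -1.49, adjusted p = 0.00619). All genes called lower were 2.39% at stage I in that fit (1.82% without the block) and 3.46% from stage I to II (3.25%). The replicate block within antibody also called 1 there (Phgdh, -1.48, adjusted p = 0.00927). Shmt1 from stage I to II under anti-IL5 was not called under either block (adjusted p = 0.0508 and 0.0719). Besides Shmt2 in the report, the blocks changed no other call. Same-numbered libraries had correlations of 0.0127 to 0.338 between antibodies (2 of 11 over 0.1) and 0.0229 to 0.208 between stages (16 of 30 over 0.1), against 0 of 20 and 2 of 60 for different numbers. At stage II the 2 deviations of a group mirror each other, so the 2 values over 0.1 between antibodies, each 0.338, are 1 value. Deviations within a group sum to 0, which lowers the values of different numbers where same numbers correlate. The values of different numbers are therefore no independent support. Isotype stages I and III also had all 3 pairs over 0.1 (0.12 to 0.2), but were not compared with each other. In every other comparison with 3 pairs at least 1 pair was at 0.1 or below, although each library correlated best with its own number except at stage IV between antibodies (4 of 6 libraries), a hint from the data and not the design. Psph at stage IV turned from -0.00208 to 0.00138 with DESeq2 and 0.00188 with the block.

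Leaving out 1 library gave these ranges of called members: 0 to 1 at stage I, 0 to 3 at stage II, 3 to 5 at stage III, 0 to 1 at stage IV and 5 to 6 for the mean. The all-gene shares called lower in these fits were 0.5 to 1.48%, 0.224 to 1.31%, 2.2 to 4.85%, 0.469 to 0.712% and 8.78 to 10.3%, all below the shares printed beside the members at stages I to IV, except that stage II had 1.31% without isotype replicate 1. Under isotype the called members were 0 to 1 (I to II), 6 to 8 (II to III), 4 to 6 (III to IV) and 8 to 8 (I to IV), and under anti-IL5 0 to 4, 7 to 8, 1 to 2 and 8 to 8; from stage I to II all genes called lower ran from 0.502 to 4.36% and from 1.53 to 5.01%. For the difference between stages III and IV the range was 1 to 2, beside 0.541% of all genes called higher with all libraries. Uncalled values that changed sign had these log2 ranges: Mthfd2 at stage I -0.454 to 0.153, Psat1 at stage IV -1.33 to 0.0913, Psph at stage IV -0.0616 to 0.0684, Shmt1 over all stages -0.351 to 0.0242, and under anti-IL5 Psph from stage I to II -0.402 to 0.0579, Shmt1 from III to IV -1.04 to 0.0992 and Mthfd1 from III to IV -0.0237 to 0.502.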
